A study of Mus musculus with 21 samples.

Results

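The genes described here encode the subunits of the mouse proteasome and its dedicated helpers. They are the transcripts whose symbol starts with Psma, Psmb, Psmc, Psmd, Psme, Psmf or Psmg followed by a digit, and 49 of the 23827 transcripts listed for every sample met this rule, none of them repeated. By role, 7 encode the alpha ring and 7 the beta ring of the 20S core, 5 are alternative core subunits of immune or germ cells, 6 are ATPases and 11 are other subunits of the 19S regulatory particle. A further 3 are assembly chaperones of the 19S particle, 4 are assembly chaperones of the 20S core, and 5 are activators or an inhibitor of the core. The last, Psmc3ip, matches the name only: it binds an ATPase subunit and is known for its part in meiotic recombination, and it is counted among the 49 but under none of these roles.

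The proteasome degrades proteins that carry a ubiquitin chain. The beta ring of its barrel-shaped 20S core holds the protease sites and the alpha ring gates the entry, while the 19S particle binds the ubiquitin chain, removes it, and uses its ATPases to unfold and thread the protein into the core. Cells build the subunits in fixed proportions, and transcription factors such as Nfe2l1 raise their genes together when proteasome activity is short. In immune cells and after interferon, the subunits Psmb8, Psmb9 and Psmb10 replace Psmb5, Psmb6 and Psmb7 to form the immunoproteasome, which makes peptides for presentation on MHC class I molecules.

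RNA from brain (forebrain) and kidney of mouse embryos at embryonic day 14.5 (E14.5) was sequenced in 21 libraries, 3 in each of 7 groups. All embryos were heterozygous for Gt(ROSA)26Sor-mCherry-Rpl10a, an allele from 1 targeted embryonic stem cell clone that expresses an mCherry-tagged ribosomal protein only after Cre has removed a stop cassette. Total RNA (transcriptome) and RNA pulled down with the tagged ribosomes (translatome, by translating ribosome affinity purification) were sequenced to compare the transcribed with the ribosome-bound RNA, and endothelial cells (EC) and the Emx1-lineage were profiled the same way. Each library came from tissue pooled from several organs, so its values are averages over embryos.

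The brain transcriptome, brain translatome, kidney transcriptome and kidney translatome came from Sox2Cre+/-;Gt(ROSA)26Sor-mCherry-Rpl10a+/- embryos, in which the driver acts in all cells of the embryo proper. The brain EC translatome and kidney EC translatome came from Cdh5CreERT2+/-;Gt(ROSA)26Sor-mCherry-Rpl10a+/- embryos, whose tamoxifen-dependent Cre is driven in endothelial cells and was induced by giving tamoxifen to the mother. The Emx1-lineage translatome came from forebrains of Emx1Cre+/-;Gt(ROSA)26Sor-mCherry-Rpl10a+/- embryos, in which Cre marks the progenitors of the dorsal telencephalon and their progeny. No group without the tagged allele was analysed here, so background RNA in the pull-down was not measured for any gene.

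RefSeq promoter windows on the mouse build GRCm38.p6 matched 41 of the 49 genes. The 250 bases before the annotated transcription start, read 5' to 3' on the strand of the gene, are shown for the catalytic subunits that exchange with an alternative form (Psmb5 and Psmb6 with Psmb8 and Psmb9, and the alternative Psmb10), and for the 19S genes Psmc2 and Psmd6, whose translatome association differed between the organs. Capitals mark matches to the motifs searched.
Psmb5 (chr14:54617996-54618245, minus strand): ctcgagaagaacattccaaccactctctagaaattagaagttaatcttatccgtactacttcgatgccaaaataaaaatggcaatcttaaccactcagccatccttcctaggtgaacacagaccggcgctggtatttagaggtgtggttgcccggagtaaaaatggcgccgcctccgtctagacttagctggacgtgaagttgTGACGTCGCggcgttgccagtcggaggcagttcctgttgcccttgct
Psmb6 (chr11:70525107-70525356, plus strand): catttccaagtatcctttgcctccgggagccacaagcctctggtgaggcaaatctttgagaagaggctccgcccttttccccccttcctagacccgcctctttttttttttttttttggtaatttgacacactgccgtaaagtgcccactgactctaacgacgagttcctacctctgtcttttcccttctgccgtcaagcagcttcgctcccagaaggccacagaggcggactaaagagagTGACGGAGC
Psmb8 (chr17:34197945-34198194, plus strand): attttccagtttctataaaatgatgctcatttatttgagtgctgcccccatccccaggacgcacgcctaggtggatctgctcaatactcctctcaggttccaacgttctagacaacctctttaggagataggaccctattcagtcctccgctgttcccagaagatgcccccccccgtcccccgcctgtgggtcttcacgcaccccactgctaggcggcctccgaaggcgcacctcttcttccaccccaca
Psmb9 (chr17:34187331-34187580, minus strand): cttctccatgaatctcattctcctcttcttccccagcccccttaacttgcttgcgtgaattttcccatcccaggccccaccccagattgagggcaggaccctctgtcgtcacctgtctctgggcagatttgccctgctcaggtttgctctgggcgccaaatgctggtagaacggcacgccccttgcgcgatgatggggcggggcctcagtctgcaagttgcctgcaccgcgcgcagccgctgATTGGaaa
Psmb10 (chr8:105938393-105938642, minus strand): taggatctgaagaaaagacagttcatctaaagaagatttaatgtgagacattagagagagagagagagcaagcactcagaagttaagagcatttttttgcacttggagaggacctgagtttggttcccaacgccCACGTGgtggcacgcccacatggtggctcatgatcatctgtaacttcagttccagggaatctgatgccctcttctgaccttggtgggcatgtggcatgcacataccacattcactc
Psmc2 (chr5:21785025-21785274, plus strand): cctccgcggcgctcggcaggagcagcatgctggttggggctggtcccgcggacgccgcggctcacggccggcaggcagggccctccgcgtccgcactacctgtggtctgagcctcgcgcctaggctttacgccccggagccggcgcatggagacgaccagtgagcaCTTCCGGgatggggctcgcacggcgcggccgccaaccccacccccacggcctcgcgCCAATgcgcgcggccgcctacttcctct
Psmd6 (chr14:14120946-14121195, minus strand): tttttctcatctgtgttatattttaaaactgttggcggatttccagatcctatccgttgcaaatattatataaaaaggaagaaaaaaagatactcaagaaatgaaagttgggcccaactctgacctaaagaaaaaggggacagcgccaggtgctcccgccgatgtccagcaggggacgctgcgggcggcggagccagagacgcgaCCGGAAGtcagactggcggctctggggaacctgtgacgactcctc

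Searched on both strands were TGACNNNGC, the core of the antioxidant response element that Nfe2l1 and Nfe2l2 bind, CCAAT, the box bound by NF-Y, an interferon-stimulated element (GAAA, any 2 bases and GAAA again), CCGGAAG, a site of Ets family factors, TGAGTCA, a site of AP-1, and CACGTG, an E-box. The Ets site CCGGAAG was present in 13 of 41 proteasome windows (31.7%), against 7.83% of the windows of all 27025 genes. The 13 were Psma6, Psmc1, Psmc2, Psmc6, Psmc3ip, Psmd2, Psmd4, Psmd6, Psmd11, Psmd12, Psme3, Psme4 and Psmg1. None of these encodes a beta ring subunit, but Psmb1, Psmb2 and Psmb7 of that ring had no window and were not searched. TGACNNNGC was found in 12.2% of the proteasome windows against 11.5% of all, and its holders were Psmb5, Psmb6, Psmc6, Psmd9 and Psmd12. CCAAT was found in 36.6% against 37.5%, the interferon-stimulated element in 7.32% (Psmb3, Psmd4 and Psmd9) against 3.46%, TGAGTCA in 2.44% against 5.16% and CACGTG in 9.76% against 6.86%. The Psmb8 window held none of the 6 motifs, which says nothing about sites outside these 250 bases. In the GENCODE annotation the Psmb8 and Psmb9 genes start further upstream, and the windows printed for both lie inside them. A match to so few letters is a description of the sequence and not a binding site.

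Libraries held 21760652 to 79231692 counted reads (median 43190754), with the fewest in the kidney translatome (21760652 to 24605124). Marker genes followed the labels: summed over 10 endothelial markers, RPKM (reads scaled to transcript length and library depth) was 3115 to 3260 in the brain EC translatome and 158.5 to 183.8 in the brain translatome, and 2034 to 2362 against 355.5 to 382.3 in kidney. Neuronal markers still summed to 470.4 to 595.3 in the brain EC translatome, against 2174 to 2191 in the brain translatome. Of these 6 markers, 4 were called lower and 2 higher in brain EC. Cell type markers also differed between total RNA and the translatome. The 6 erythroid markers summed to 185.7 to 428.6 in total RNA and 98.54 to 191.7 in the translatome of brain, which overlap, and to 352.5 to 665.4 and 92.03 to 173.5 in kidney, with Hba-a1, a defining globin gene, listed at 0 in all groups. The 8 macrophage markers summed to 30.29 to 40.31 in brain total RNA and 65.77 to 74.09 in its translatome (5 called higher, 1 lower), and to 29.12 to 35.83 and 43.56 to 56.83 in kidney (2 higher, 0 lower). Endothelial markers summed to 101.9 to 130.5 in brain total RNA and 269.2 to 295 in kidney total RNA, below the translatome of each organ. The part of these cell types in the translatome comparisons was not tested. In whole-organ RNA, fewer cells of a type and less RNA per cell cannot be told apart. Reads that fit more than 1 copy limit some genes: 66.9% to 91.9% of the Psma4, Psma5, Psmb3, Psmb5, Psmc1, Psmd2 and Psme2 transcripts match another gene at 95% identity or more, and the Psme2 entry joins the accessions of Psme2 and its copy Psme2b. The library kit does not mark the strand, so reads in exon stretches shared with a neighbour could belong to either gene: this holds for 21.2% of the exon bases of Psmc3ip (with Mlx), 25.5% of Psmd9, 14.7% of Psmb8 and 5.79% of Psmb9 (with Tap1).

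Nearly all proteasome genes were expressed in all 7 groups, most of them at a mean over 10 RPKM. The exceptions were 4 alternative subunits, Psma8, Psmb8, Psmb9 and Psmb11, whose means stayed at or below 1 RPKM in at least 1 group. Among the constitutive 20S genes, Psma7, an alpha ring subunit, had the highest mean over the 7 groups (223 RPKM) and Psma3, of the same ring, the lowest (8.90 RPKM). In the beta ring, Psmb4, a structural subunit without a protease site, led with a mean of 210.4 RPKM, and Psmb5, which carries the chymotrypsin-like activity, was last with 32.8 RPKM. Psma3, Psmb5 and Psmd11, the lowest of their roles, have copies that match 32.5%, 88.4% and 52.7% of their transcripts, and the part of shared reads in their low level was not tested.

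The 6 ATPases of the 19S base, which form 1 ring, lay closer together, from 68.8 RPKM for Psmc1 to 113.8 RPKM for Psmc5. The other 19S subunits ran from 24.5 RPKM for Psmd11, a scaffold subunit of the lid, to 114.3 RPKM for Psmd8, also of the lid. The 20S assembly chaperones lay between 34.0 RPKM (Psmg3) and 48.1 RPKM (Psmg4), and the 19S chaperones between 16.6 RPKM (Psmd9) and 33.4 RPKM (Psmd5). Of the activators, Psme3 (PA28 gamma, a nuclear cap of the core) was highest with 78.6 RPKM and Psme2 (PA28 beta) lowest with 11.7 RPKM. These are levels per length, so they may be set side by side. Psmc1 and Psme2, also the lowest of their roles, match copies over 82% and 82.5% of their transcripts. The part of shared reads in their levels was not tested.

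**Figure D1:**
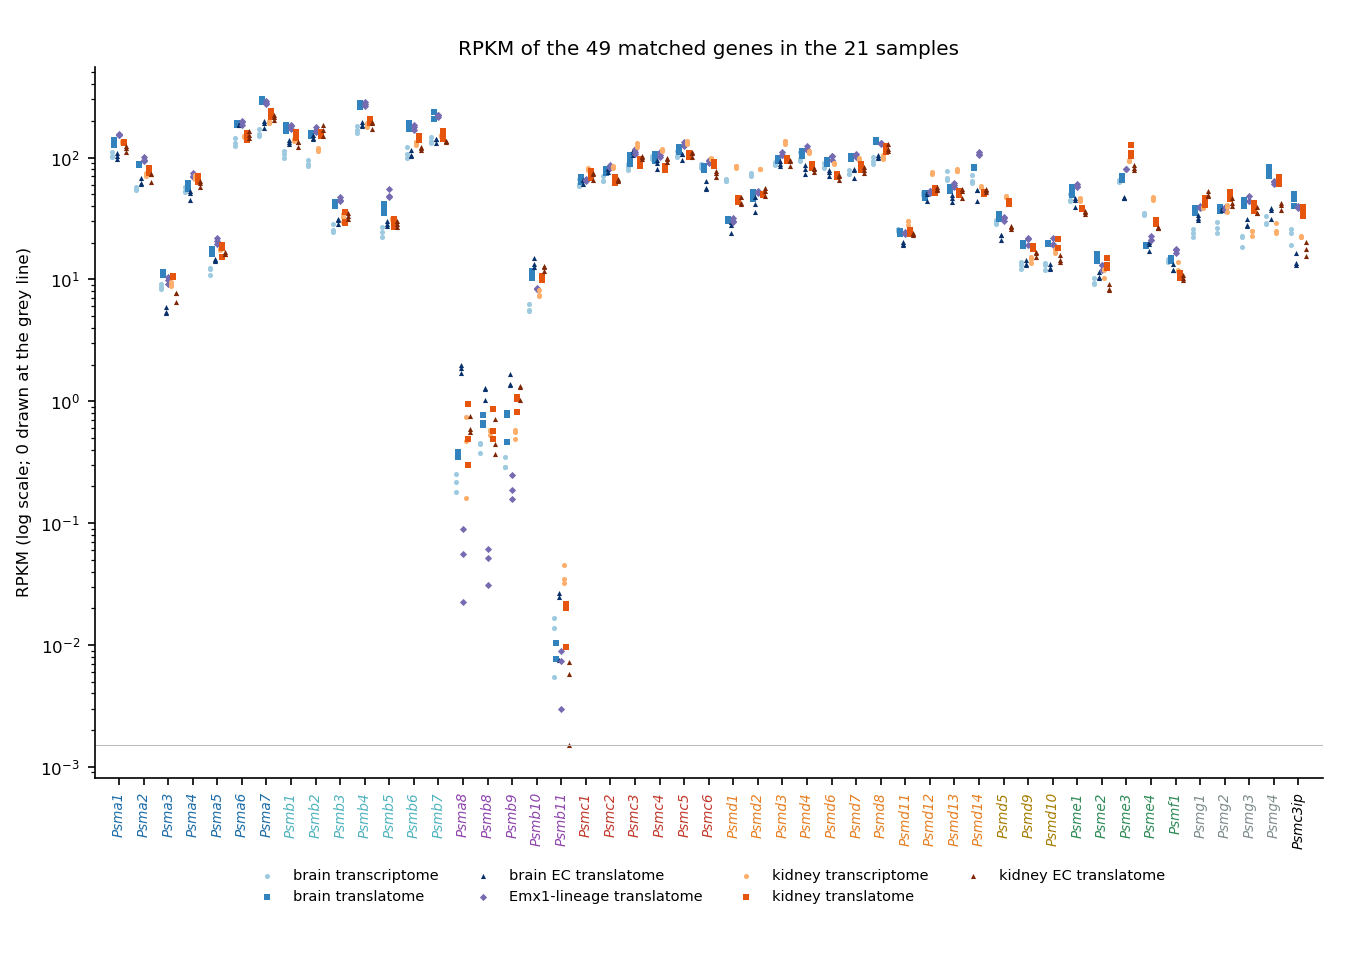
RPKM (vertical log axis) of the 49 genes in the 21 libraries, with 1 column of points per gene, colours and symbols for the 7 groups and gene names coloured by role; a value of 0 is drawn on the grey line near the bottom, which 1 kidney EC library of Psmb11 reaches. Constitutive subunits and helpers sit between 5.261 and 299.7 RPKM, while Psma8, Psmb8, Psmb9 and Psmb11 lie below 2 RPKM.

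The first comparison asks which transcripts are over- or underrepresented among ribosome-bound RNA relative to total RNA. In brain, the 20S core genes were higher in the translatome and the 19S genes mostly were not. A transcript was called at an adjusted p under 0.001 (edgeR quasi-likelihood test, Benjamini-Hochberg over all transcripts tested). Of the 49 genes, 26 were higher (53.1%) and 4 lower (8.16%), where 18.6% of all 19446 transcripts tested were higher and 18.5% lower. Among the 12323 other mRNAs with a mean over 1 RPKM in brain total RNA, 27.6% were higher and 25.3% lower. The median log2 fold change of the 49 was 0.44 against -0.01 over all transcripts, and in each of the 30 called genes the 3 translatome RPKM lay apart from the 3 transcriptome RPKM. At an adjusted p under 0.05, 36 of the 49 were higher and 4 lower, against 27.7% and 28.1% of all transcripts.

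The beta ring genes moved together: 7 of 7 genes were higher, with log2 fold changes between 0.65 (Psmb5) and 0.83 (Psmb2). Their summed RPKM was 627, 715 and 652 in the brain transcriptome and 1136, 1036 and 1067 in the brain translatome. All 3 translatome libraries lay above all 3 transcriptome libraries. Psmb6, the caspase-like protease subunit, had 99.8, 122 and 107 RPKM in total RNA and 192, 170.2 and 183 RPKM in the translatome, and its log2 fold change was 0.76 ± 0.07 (SE, adjusted p = 3.3e-07). Psmb7, the trypsin-like subunit, rose from 136, 148 and 133 to 235, 208 and 209 RPKM, a log2 fold change of 0.68 ± 0.06 (adjusted p = 2.2e-07). Psmb5 rose from 22.5, 26.9 and 24.4 to 41.4, 35.1 and 36.9 RPKM, with a log2 fold change of 0.65 ± 0.09 (adjusted p = 1.9e-05). So the genes of the 3 protease activities had like changes, and their groups did not overlap.

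In the alpha ring, 6 of 7 genes were higher, with a summed RPKM of 502, 564 and 519 in total RNA and 807, 767 and 795 in the translatome. Psma7 changed most within the ring, from 150.2, 171 and 156 to 299.7, 285 and 286 RPKM, a log2 fold change of 0.90 ± 0.06 (adjusted p = 8.2e-09). Psma4 was the exception, at 52.3, 57.1 and 52.7 and 61.3, 55.1 and 61.6 RPKM with overlapping groups (log2 fold change 0.17, adjusted p = 0.039). Psma3 had a log2 fold change of 0.38 (adjusted p = 9.5e-04), and this call was lost when any of the 6 libraries was left out, with adjusted p up to 0.006.

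Of the 6 ATPases of the 19S particle, only Psmc2 was called higher, with 63.6, 70.1 and 64.0 RPKM in total RNA and 79.4, 80.9 and 75.1 RPKM in the translatome (log2 fold change 0.28, adjusted p = 2.5e-04). That call was lost without brain transcriptome 1 or 3 or brain translatome 1 or 2 (adjusted p up to 0.0025). The other 5 had log2 fold changes from -0.03 (Psmc6) to 0.23 (Psmc3), and the summed RPKM of the ATPases was 489.5, 529 and 487 against 567, 529 and 511, which overlap. Among the 11 other 19S subunits, 3 were higher and 3 lower. The higher ones were Psmd7, Psmd8 and Psmd14, all of the lid that removes ubiquitin, with log2 fold changes of 0.44, 0.55 and 0.36; Psmd14 is the deubiquitinating enzyme itself.

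The lower ones included the largest subunits of the particle. Psmd1, a scaffold of the 19S base, fell from 64.7, 66.7 and 63.7 RPKM to 31.2, 31.0 and 30.0 RPKM, a log2 fold change of -1.05 ± 0.05 (adjusted p = 3.1e-10). Psmd2, its partner scaffold that docks substrate shuttles, fell from 73.9, 74.98 and 70.4 to 52.4, 48.1 and 45.8 RPKM, with a log2 fold change of -0.56 ± 0.06 (adjusted p = 7.9e-07). Psme4 (PA200), a large activator that caps the core in the nucleus, fell from 34.5, 34.1 and 34.8 to 18.9, 19.1 and 19.3 RPKM, with a log2 fold change of -0.82 ± 0.05 (adjusted p = 2.8e-09). In these 3 genes the highest translatome value lay well below the lowest transcriptome value. The lid subunit Psmd13 was also lower, at a log2 fold change of -0.34 (adjusted p = 2.9e-04), but lost its call without brain translatome 2 or 3 (adjusted p up to 0.0017) and, with only the 4 libraries of 1 sequencing run, had -0.25 (adjusted p = 0.026).

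The assembly chaperones, which help to join the subunits, were mostly higher. All 4 chaperones of the 20S core were higher. Psmg4 had the largest log2 fold change of the 49 genes, 1.37 ± 0.09 (adjusted p = 9.8e-09), with 28.7, 33.1 and 29.1 RPKM in total RNA and 84.2, 70.3 and 74.8 RPKM among ribosome-bound RNA. Psmg3, with which Psmg4 forms a dimer, rose from 18.4, 22.7 and 22.2 to 44.6, 40.4 and 40.4 RPKM (log2 fold change 1.02 ± 0.09, adjusted p = 2.5e-07). Psmg1 and Psmg2, the other dimer, had 0.62 and 0.53. Of the 19S chaperones, Psmd9 and Psmd10 were higher (0.60 and 0.64) and Psmd5 had a log2 fold change of 0.17 (adjusted p = 0.026). Psmc3ip, which is no subunit, had a log2 fold change of 1.00 ± 0.11 (adjusted p = 2.4e-06) in brain.

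Among the activators, Psme2 was higher (log2 fold change 0.74, adjusted p = 1.4e-05), while its partner in the PA28 ring, Psme1, had a log2 fold change of 0.22 (adjusted p = 0.018), Psme3 had 0.11 (adjusted p = 0.071) and the inhibitor Psmf1 (PI31) had 0.07 (adjusted p = 0.35). Of the alternative subunits only Psmb10 was called, with 5.56, 6.29 and 5.55 RPKM in total RNA and 11.8, 10.3 and 10.9 RPKM in the translatome (log2 fold change 0.95 ± 0.10, adjusted p = 9.8e-07). With a total-count scale the split over the 49 was 25 higher and 4 lower, and with the 4 libraries of the run that brain transcriptome 1 shares with the 3 translatomes it was 22 and 3, with a median of 0.60.

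In kidney the same comparison, with libraries of the same tissue pool not paired, gave another picture. Counts with these libraries paired are given further on. Only 5 of the 49 genes were higher in the translatome (10.2%) and 12 were lower (24.5%), where 14.9% of all 19336 transcripts tested were higher and 15.8% lower, and the median log2 fold change was -0.02 against -0.03 over all. Among the 12308 other mRNAs with a mean over 1 RPKM in kidney total RNA, 22.7% were higher and 22.7% lower, so the share of lower genes was near that of expressed mRNAs. In all 17 called genes the groups did not overlap. The lower genes were all of the 19S particle except Psme4, and no core gene was lower. With the threshold at 0.05 the counts were 15 higher and 20 lower, beside 24.3% and 26.1% of all transcripts.

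The core stayed close to its level in total RNA. The beta ring summed to 784, 806 and 777 RPKM in the kidney transcriptome and 836, 907 and 859 RPKM in the kidney translatome, and the alpha ring to 638, 658 and 648 and 654, 716 and 695 RPKM. Psmb2, a structural subunit without a protease site, was the single core gene called without the pairing, with 118, 120.1 and 113 against 159.9, 163 and 151 RPKM (log2 fold change 0.43 ± 0.04, adjusted p = 1.1e-05). Psmb6 had 133, 135 and 127 and 138, 149 and 141 RPKM (log2 fold change 0.12, adjusted p = 0.039), and Psmb5 had 30.6, 32.1 and 31.3 and 26.7, 31.2 and 27.8 RPKM (log2 fold change -0.13, adjusted p = 0.19). Psma7 had 191, 201 and 192 against 214, 242 and 235 RPKM, groups that do not overlap, at a log2 fold change of 0.24 (adjusted p = 0.0017). It was called higher with the libraries paired, as given further on.

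The ATPases summed to 635, 647 and 629 RPKM in total RNA and 498, 529 and 482 RPKM in the translatome, and 4 of 6 were lower. These were Psmc2, Psmc3, Psmc4 and Psmc5, with log2 fold changes of -0.37, -0.48, -0.48 and -0.36. Psmc2 thus went up in brain and down in kidney, from 82.6, 83.0 and 85.5 RPKM to 62.3, 69.8 and 62.0 RPKM (log2 fold change -0.37 ± 0.05, adjusted p = 7.8e-05). Of the other 19S subunits 7 of 11 were lower, and their sum fell from 931, 948 and 932 to 718, 746 and 725 RPKM. Psmd1 had 85.9, 84.6 and 82.1 against 46.8, 46.7 and 43.4 RPKM (log2 fold change -0.88 ± 0.04, adjusted p = 1.2e-07), and Psmd2 had 81.3, 80.8 and 80.3 against 50.5, 48.97 and 48.9 RPKM (log2 fold change -0.71 ± 0.04, adjusted p = 1.5e-07). Psmd13 and Psmd12, both of the lid, had -0.62 and -0.49, and Psmd3, Psmd4 (a ubiquitin receptor) and Psmd6 had -0.46, -0.40 and -0.32. The large activator Psme4 fell from 47.4, 44.5 and 46.9 to 30.8, 30.4 and 28.7 RPKM (log2 fold change -0.62 ± 0.04, adjusted p = 1.1e-06).

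Among the called genes, the chaperones Psmg4 and Psmg3 had the highest values, at a log2 fold change of 1.34 ± 0.09 (adjusted p = 6.4e-07) and 0.72 ± 0.08 (adjusted p = 1.7e-05). Psmg4 had 24.2, 25.1 and 29.0 RPKM in total RNA and 67.4, 68.7 and 61.0 RPKM in the translatome, and its groups did not overlap in either organ. Psmc3ip had a log2 fold change of 0.68 (adjusted p = 2.7e-05), and 0.56 (adjusted p = 0.0014) with the 4 libraries of 1 sequencing run. Psmd9 was called at a log2 fold change of 0.33 (adjusted p = 8.5e-04) but lost its call without any of the 6 libraries, with adjusted p up to 0.0048. Translatome and transcriptome libraries of the same number came from the same tissue pool, and with this pairing as a replicate block the kidney counts were 11 higher and 20 lower. The block called, among others, Psma7 at a log2 fold change of 0.24 (adjusted p = 1.5e-09), Psmb10 at 0.44 (adjusted p = 4.9e-08) and the activators Psme2 at 0.28 (adjusted p = 8.3e-04) and Psme3 at 0.26 (adjusted p = 2.2e-11) as higher, and Psme1 at -0.25 (adjusted p = 2.0e-06) and Psmf1 at -0.24 (adjusted p = 4.6e-06) as lower.

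Tested directly, as the translatome to transcriptome change in kidney minus that in brain (12 libraries), 19 of the 49 genes differed toward kidney being lower (38.8%) and 0 toward kidney being higher in edgeR. DESeq2 also called 0 higher, and at an unadjusted p under 0.05 edgeR had 2 higher and 36 lower. Of all 20108 transcripts tested, 2.35% were called in the first direction and 4.12% in the second. The median difference over the 49 was -0.44 on the log2 scale, against 0.001 over all transcripts. By role the 19 were 4 of 7 alpha ring genes, 5 of 7 beta ring genes, 4 of 6 ATPases and 6 of 11 other 19S subunits. The assembly chaperones, activators, inhibitor and alternative subunits held none of the calls. At an adjusted p under 0.05, 2 of the 49 were higher and 31 lower, against 12.6% and 10.5% of all transcripts.

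The sizes were alike in the core and the regulatory particle. The largest called differences were -0.77 ± 0.13 (adjusted p = 4.4e-04) for Psmb5, -0.70 ± 0.09 (adjusted p = 8.3e-05) for Psmc3, -0.65 ± 0.08 (adjusted p = 5.3e-05) for Psmb7, -0.64 ± 0.08 (adjusted p = 2.8e-05) for Psma7 and -0.63 ± 0.07 (adjusted p = 1.5e-05) for Psmc2. Core genes were higher in the brain translatome and near 0 in kidney, and 19S genes were near 0 in brain and lower in kidney, so the gap between core and 19S genes was present in both organs. Over the 14 constitutive core genes the median was 0.68 in brain and 0.06 in kidney, and over the 17 subunits of the 19S particle it was 0.12 and -0.37. Psmd1, Psme3 and Psme4 were the only 3 genes with a difference above 0, at 0.19 (adjusted p = 0.038), 0.18 (adjusted p = 0.16) and 0.22 (adjusted p = 0.016), and Psmg4 had -0.01 with adjusted p = 1. Without brain transcriptome 3 the count was 12 in place of 19, and with the other 11 libraries left out in turn it was 15 to 20. Psmb5 lost its call in 7 of these 12 fits and Psma1 in 10.

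The ratio within each tissue pool describes the same values pair by pair. Over the 45 genes above 1 RPKM, the median log2 ratio of translatome to transcriptome RPKM was 0.47, 0.28 and 0.41 in the 3 brain pools and -0.10, 0.01 and -0.02 in the 3 kidney pools. The median over the mRNAs above 1 RPKM in both libraries of a pool lay between 0.002 and 0.022 in all 6. The median of the ATPases was 0.26, -0.03 and 0.08 in brain and -0.40, -0.30 and -0.40 in kidney, without overlap between the organs. Of the kidney translatome libraries, 1 and 2 shared a sequencing run with brain transcriptome 2 and 3, and 3 shared its run with the kidney transcriptome. The part of the sequencing run in these ratios was not tested.

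**Figure D2:**
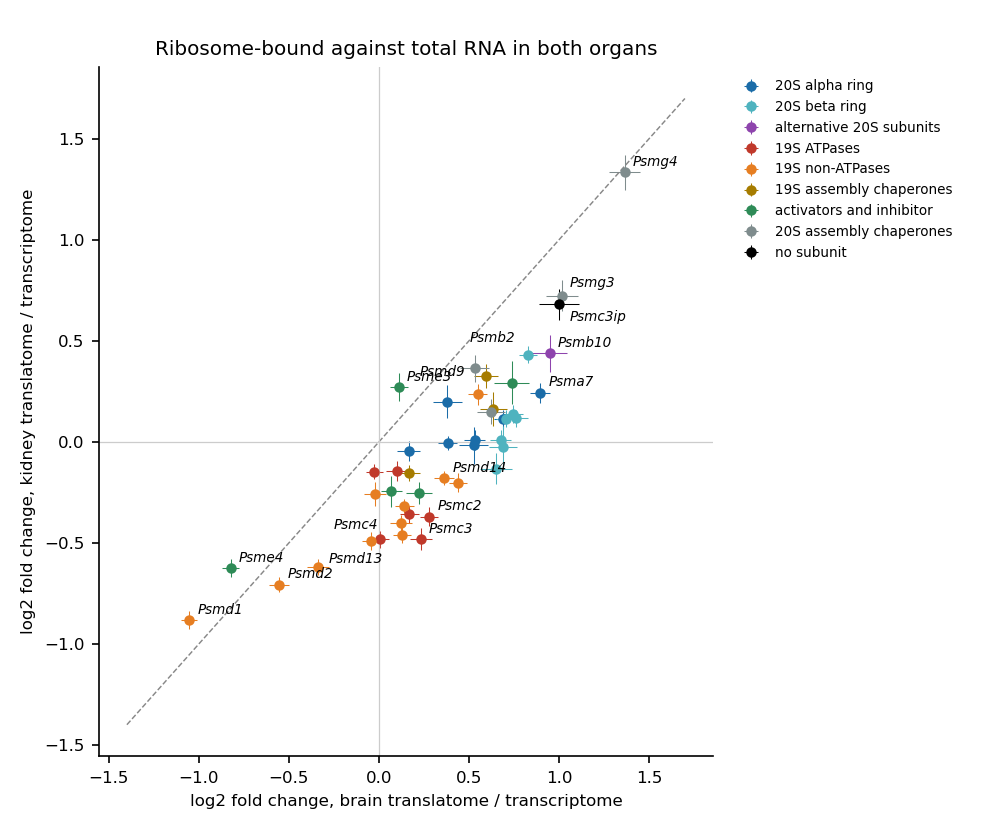
Log2 fold change of translatome over transcriptome in kidney (vertical axis) against brain (horizontal axis), 1 point per gene coloured by role with SE bars; Psma8, Psmb8, Psmb9 and Psmb11, at or below 1 RPKM in at least 1 group, are left out. Most points lie below the diagonal, with Psmg4 at 1.37 and 1.34 at the upper right and Psmd1 at -1.05 and -0.88 at the lower left.

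Transcript length moved with these values. Across 45 genes above 1 RPKM, Spearman's rho between length and the translatome to transcriptome change was -0.78 in brain and -0.59 in kidney. Genes are not independent replicates, so no p is given. Psmg4, with 545 bases, was highest, and Psme4, with 6494 bases, was among the lowest. The length trend was also present in the other mRNAs: those up to 1000 bases had a median of 0.98 in brain and 0.68 in kidney, against 0.71 and 0.15 for the 13 proteasome genes of that length. Over 1000 and up to 2000 bases the 2686 other mRNAs of the brain fit had a median of 0.39 and the 24 proteasome genes 0.32, and in kidney the medians were 0.17 and -0.15. Up to 1000 bases, 12 of 13 proteasome genes were called higher in brain, against 76% of the other mRNAs, and 4 of 13 in kidney against 58.4%. Over 1000 and up to 2000 bases, 13 of 24 were higher and 1 lower in brain, against 49.1% and 7.93%. In kidney 0 of these 24 were higher and 8 lower, against 29.6% and 11.2%. The part of length in the contrast between core and 19S genes was not tested.

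The organ difference was less aligned with length (rho 0.37). Among transcripts over 1000 and up to 2000 bases, 13 of 24 proteasome genes were called lower in kidney, against 6.58% of 2509 other mRNAs of that length, and the medians were -0.46 and -0.18. Up to 1000 bases it was 5 of 13 against 6.67% of 809, with medians of -0.46 and -0.31. Over 2000 and up to 4000 bases 1 of 7 was called lower against 3.49% of 4669, with medians of -0.25 and 0.01. The 1 gene over 4000 bases, Psme4, had 0.22 where the 3319 others had a median of 0.19. These are descriptions without a test of the lists, and the part of length in the organ difference was not tested.

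**Figure D3:**
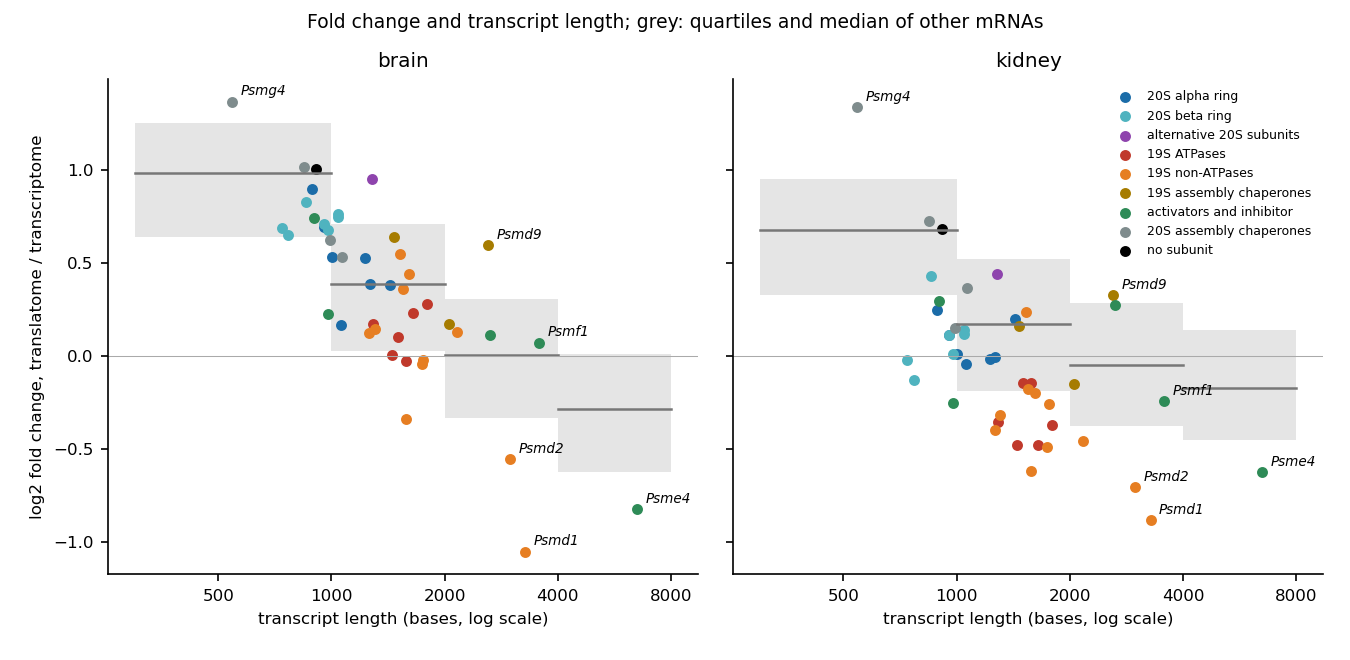
Translatome to transcriptome log2 fold change (vertical axis) against transcript length in bases (log axis) in brain and kidney, 1 point per gene coloured by role; grey boxes and lines are the quartiles and median of other mRNAs in each length group, and the 4 alternative subunits at or below 1 RPKM are left out. Changes fall with length in brain (rho -0.78) and kidney (rho -0.59), and in kidney most 19S genes lie below the median of other mRNAs of their length.

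Between the total RNA of the organs, few proteasome genes were called. Brain was higher for 2 of 49 genes (4.08%) and lower for 8 (16.3%), where 27.2% and 26.3% of all 19841 transcripts tested were called. The lid enzyme gene Psmd14 was higher in brain, with 61.6, 71.6 and 64.4 RPKM against 57.3, 57.3 and 58.3 RPKM (log2 fold change 0.38 ± 0.05, adjusted p = 3.8e-05), and on the total-count scale it had a log2 fold change of 0.20 (adjusted p = 0.0055). The chaperones Psmg1 and Psmd5 were lower in brain, with 22.5, 26.0 and 24.2 against 39.1, 38.7 and 39.5 RPKM (log2 fold change -0.50 ± 0.07, adjusted p = 6.5e-05) and 28.7, 29.4 and 30.8 against 47.5, 47.4 and 48.4 RPKM (log2 fold change -0.50 ± 0.04, adjusted p = 8.3e-07). The others lower in brain were Psmc3, Psmd3, Psmd12, Psme3, Psma5 and Psme4, from -0.40 to -0.24. The inhibitor Psmf1 was called higher at a log2 fold change of 0.36 (adjusted p = 9.8e-04) with overlapping RPKM, and lost that call without any brain library or kidney library 1 or 3 (adjusted p up to 0.0051). Psma5 lost its call without any of the 6 libraries (adjusted p up to 0.0026), and without brain transcriptome 2 the number lower in brain was 14. With the threshold at 0.05 the counts were 5 higher and 20 lower, beside 35% and 34.9% of all transcripts.

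On the total-count scale the median of all transcripts itself moved by -0.18 in this comparison, and the counts became 0 higher and 23 lower. The brain and kidney transcriptome libraries shared no sequencing run, so run and organ cannot be told apart here.

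The next comparisons ask which transcripts differ between endothelial cells and the whole organ, both as translatomes. In brain EC, 6 of the 49 genes were higher (12.2%) and 7 lower (14.3%), where 24.8% and 21.4% of all 19103 transcripts tested were called. The median was -0.01 both over the 49 and over all transcripts. The brain EC, kidney EC and Emx1 groups were each sequenced in a run of their own. Run, driver and cell type therefore cannot be told apart in these comparisons. On the total-count scale the median of all transcripts shifted by -0.30, with 1 proteasome gene higher and 24 lower, so small changes hold only relative to the other transcripts. With the threshold at 0.05 the counts were 13 higher and 16 lower, beside 32.6% and 31% of all transcripts.

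Of the genes called higher, 4 were alternative subunits and are described further on. The other 2 were the ATPases Psmc3 and Psmc2. Psmc3 had 106, 94.0 and 89.0 RPKM in the brain translatome and 115, 106 and 112 RPKM in brain EC (log2 fold change 0.49 ± 0.07, adjusted p = 5.2e-05), where the lowest brain EC value, 105.9, lay just above the highest translatome value, 105.6. Psmc2 had 79.4, 80.9 and 75.1 and 80.7, 75.9 and 81.9 RPKM, which overlap (log2 fold change 0.31, adjusted p = 8.1e-04), and kept its call only without brain EC 2. On the total-count scale Psmc3 had a log2 fold change of 0.20 (adjusted p = 0.033) and Psmc2 had 0.01 (adjusted p = 0.89).

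The genes called lower were Psma3, Psma7, Psmb6, Psmb7, Psmd14, Psmg4 and Psmc3ip. Psmg4, the chaperone with the highest ribosome association in whole brain, had 84.2, 70.3 and 74.8 RPKM there and 31.1, 37.2 and 38.7 RPKM in brain EC (log2 fold change -0.81 ± 0.10, adjusted p = 8.1e-06). Psmb6 fell from 192, 170.2 and 183 to 115, 103 and 105 RPKM (log2 fold change -0.47 ± 0.07, adjusted p = 5.5e-05), and lost its call without brain translatome 1 (adjusted p = 0.0013). Psmd14 fell from 82.6, 82.2 and 83.9 to 54.3, 44.1 and 54.1 RPKM (log2 fold change -0.42 ± 0.08, adjusted p = 4.9e-04), a call lost without any 1 of the brain translatome libraries (adjusted p up to 0.0057). Psmc3ip had 40.2, 50.6 and 45.6 against 13.1, 16.3 and 13.6 RPKM (log2 fold change -1.37 ± 0.11, adjusted p = 1.1e-07), the lowest log2 fold change of the 49 in brain EC. Without brain translatome 1 the counts were 3 higher and 3 lower.

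In kidney EC, 14 genes were higher (28.6%) and 2 lower (4.08%), where 16.7% and 15% of all 18940 transcripts tested were called. The median of the 49 was 0.27 against -0.04 over all. These 14 were mostly 19S genes: 4 ATPases and 6 other 19S subunits, beside Psma6, Psmb2, Psmb10 and Psmg1. In RPKM only Psmb10, Psmc4 and Psmg1 had groups that did not overlap, and those of the other 11 overlapped. On the total-count scale, where the median of all transcripts shifted by -0.37, 0 genes were higher and 6 lower. A threshold of 0.05 gave 34 higher and 4 lower genes, where 27.6% and 27.9% of all transcripts passed it. All transcripts include weakly expressed ones, and the share among mRNAs over 1 RPKM was not computed for this comparison.

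Psmc4, an ATPase, had 85.2, 83.3 and 78.3 RPKM in the kidney translatome and 98.01, 99.5 and 91.5 RPKM in kidney EC (log2 fold change 0.58 ± 0.06, adjusted p = 6.9e-06), and 0.21 (adjusted p = 0.0087) on the total-count scale. Psmg1, a 20S chaperone, had 40.7, 46.6 and 42.8 and 49.2, 53.3 and 48.6 RPKM (log2 fold change 0.57 ± 0.07, adjusted p = 4.6e-05), and 0.20 (adjusted p = 0.038) on that scale. The 2 lower genes were Psmd5 and Psmc3ip. Psmd5, a chaperone that holds ATPases before they join the core, fell from 44.3, 42.8 and 41.5 to 26.8, 27.2 and 25.8 RPKM (log2 fold change -0.34 ± 0.06, adjusted p = 4.6e-04), groups far apart, but lost its call in 5 of 6 fits with a library left out (all but kidney EC 2, adjusted p up to 0.0029). Psmc3ip fell from 35.8, 39.5 and 33.1 to 17.8, 20.2 and 15.5 RPKM (log2 fold change -0.67 ± 0.10, adjusted p = 2.4e-04), a call lost without kidney translatome 1 or 2 or kidney EC 1. The number of higher genes also turned on single libraries: it was 5 without kidney translatome 3, 6 without kidney EC 1, 8 and 9 without kidney translatome 1 and 2, and 17 without kidney EC 3.

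Set against each other, the translatomes of both endothelial populations differed in few proteasome genes. Each EC group had its own sequencing run, so run and organ cannot be told apart here. Brain EC was higher for 1 gene (2.04%) and lower for 4 (8.16%), where 20.1% and 16.9% of all 19238 transcripts tested were called. The higher gene was the alternative subunit Psma8. The nuclear activator Psme3 had 47.8, 46.8 and 46.9 RPKM in brain EC and 79.5, 86.8 and 81.6 RPKM in kidney EC (log2 fold change -0.77 ± 0.06, adjusted p = 1.4e-06), and the scaffold Psmd1 had 27.8, 24.0 and 29.4 against 47.5, 42.4 and 41.8 RPKM (log2 fold change -0.65 ± 0.09, adjusted p = 7.9e-05). The chaperone Psmg1 had 33.5, 31.8 and 30.8 against 49.2, 53.3 and 48.6 RPKM (log2 fold change -0.61 ± 0.07, adjusted p = 1.7e-05). Psme4 had a log2 fold change of -0.45 (adjusted p = 4.3e-04), and lost its call without brain EC 1, kidney EC 1 or kidney EC 3 (adjusted p up to 0.0019). Psme3, Psmg1 and Psme4 were also lower in the total RNA of brain than of kidney, at -0.37, -0.50 and -0.24, and Psmd1 had a log2 fold change of -0.18 (adjusted p = 0.0012) there. Without brain EC 2 the genes higher in brain EC were 3, and without kidney EC 3 they were 2. A threshold of 0.05 gave 8 higher and 13 lower genes, where 30.5% and 29.1% of all transcripts passed it.

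The EC to organ change was also tested between the organs, as that in kidney minus that in brain. It differed in 7 genes: 6 were higher in kidney (12.2%) and 1 lower (2.04%), where 8.6% and 16.5% of all 19764 transcripts tested were called. The higher count depended on the tool and scaling, with 15 under RLE size factors and 22 under DESeq2, each beside 1 lower. The 6 were the core genes Psma7, Psmb4, Psmb6 and Psmb7 and the lid genes Psmd8 and Psmd14. The largest was Psmd14 with a difference of 0.83 ± 0.10 (adjusted p = 4.0e-06): it was -0.42 in brain EC and 0.44 in kidney EC. Psmb4 lost its call in 4 of 12 fits with a library left out, Psmd8 in 9 and the lower gene, Psma8, in 7. The median over all transcripts was -0.16 and over the 49 it was 0.25. With the threshold at 0.05 the counts were 25 higher and 2 lower, beside 16.1% and 27% of all transcripts.

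The Emx1-lineage translatome was compared with the brain translatome. Of the 49 genes, 10 were higher (20.4%) and 2 lower (4.08%), where 9.2% and 12.8% of all 19006 transcripts tested were called, and in all 12 the groups did not overlap. The share called among mRNAs over 1 RPKM, without the weakly expressed transcripts, was not computed for this comparison. The protease subunit Psmb5 had 41.4, 35.1 and 36.9 RPKM in the brain translatome and 48.8, 55.6 and 47.3 RPKM in the Emx1-lineage (log2 fold change 0.47 ± 0.07, adjusted p = 1.3e-04). Psmd14 had 82.6, 82.2 and 83.9 against 104, 107 and 112 RPKM (log2 fold change 0.43 ± 0.04, adjusted p = 1.6e-06), the opposite of its change in brain EC, which shares the same brain translatome libraries. The activator Psme3 had 65.7, 67.01 and 70.6 against 81.1, 80.4 and 80.2 RPKM (log2 fold change 0.30 ± 0.04, adjusted p = 5.6e-05). The alpha ring genes Psma1, Psma4 and Psma5 had 0.25, 0.33 and 0.36, and Psmc6, Psmd3, Psme4 and Psmf1 had 0.25, 0.21, 0.24 and 0.29.

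Of these 10, Psmd14 and Psme3 kept their call with each library left out. Psmb5 had adjusted p = 0.001 without Emx1-lineage 2 and Psma4 0.0015 without Emx1-lineage 3, and the other 6 lost their call in 4 to 6 of 6 fits. The number of higher genes was 3 without Emx1-lineage 3, 4 without Emx1-lineage 1 or 2 or brain translatome 2, 6 without brain translatome 3 and 10 without brain translatome 1. It was 4 on the total-count scale and 5 when at least 10 reads in 3 libraries were required. A threshold of 0.05 gave 26 higher and 5 lower genes, where 22.5% and 22.6% of all transcripts passed it. The 2 lower genes were Psma8 and Psmb8. Markers of the dorsal telencephalon summed to 1124 to 1201 RPKM in the Emx1-lineage against a median of 558.7 in the brain translatome, and the 10 endothelial markers to 14.28 to 16.29 against 158.5 to 183.8, and the part of cell composition in these changes was not tested.

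**Figure D4:**
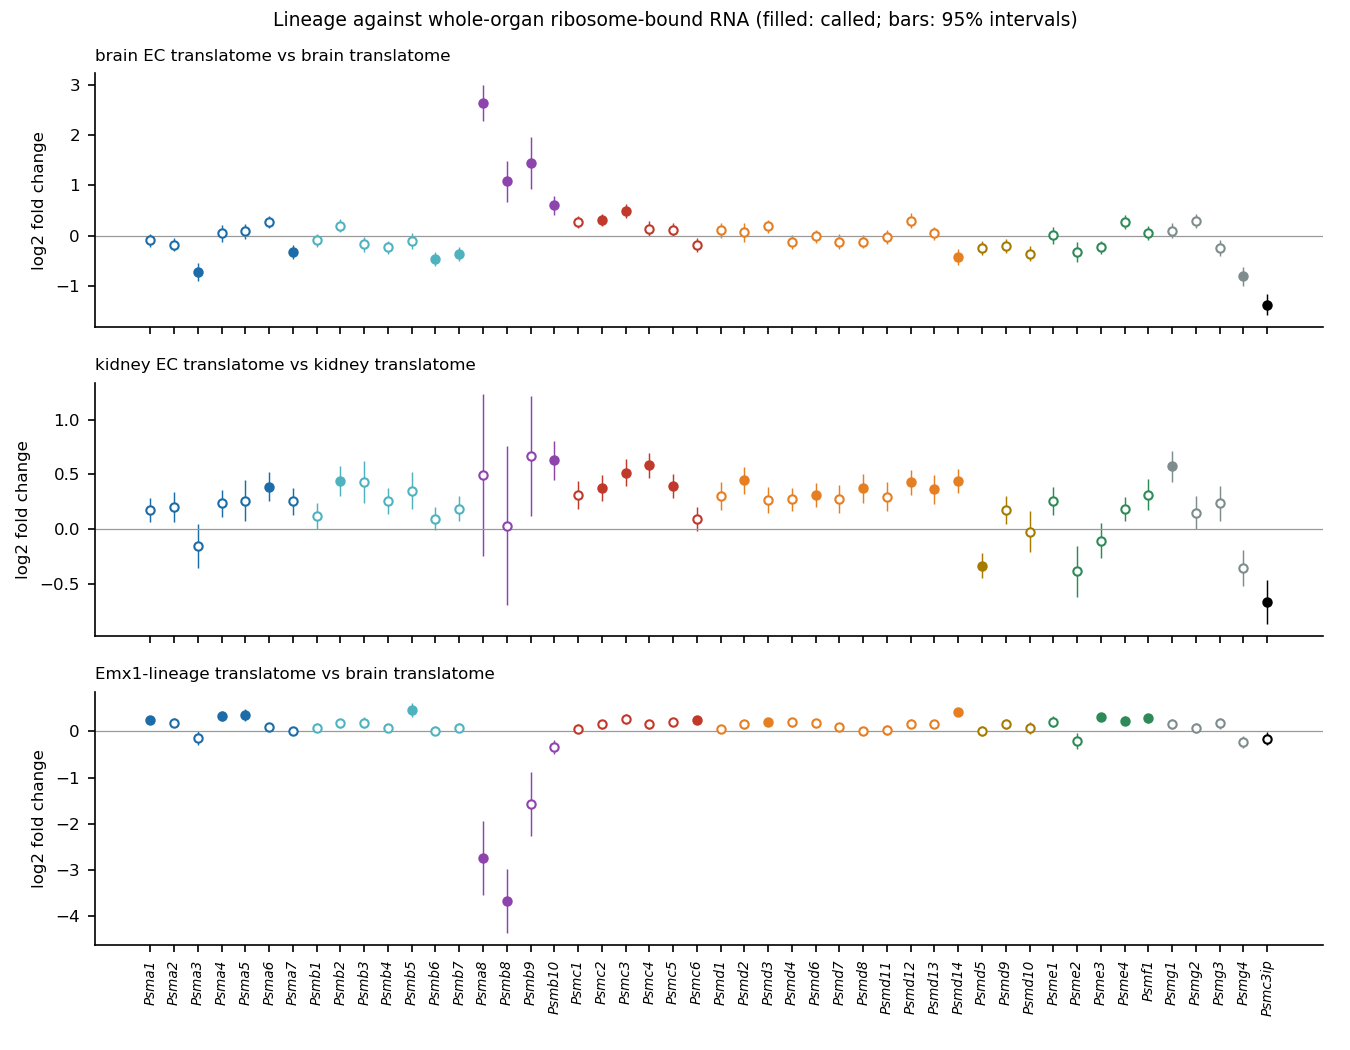
Log2 fold change (vertical axis) of the brain EC, kidney EC and Emx1-lineage translatomes over the whole-organ translatome in 3 panels, 1 column per gene coloured by role, with 95% intervals; filled points are called at an adjusted p under 0.001, and Psmb11 is left out. Psma8 at 2.64 in brain EC and Psmb8 at -3.68 in the Emx1-lineage are the extremes, and the constitutive subunits lie within 1 unit of 0. The panels have their own vertical scales.

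The alternative subunits varied most between the cell populations, at levels far below those of the subunits they replace. Psmb8, the immunoproteasome form of Psmb5, had 0.644, 0.669 and 0.767 RPKM in the brain translatome, 1.27, 1.03 and 1.28 RPKM in brain EC and 0.0618, 0.0515 and 0.0309 RPKM in the Emx1-lineage. The reads behind these values were 36, 25 and 29, then 96, 67 and 90, and 6, 2 and 2. The 3 groups did not overlap. The log2 fold change was 1.08 ± 0.21 (adjusted p = 4.7e-04) in brain EC and -3.68 ± 0.35 (adjusted p = 8.6e-07) in the Emx1-lineage (95% interval -4.37 to -2.99). The brain EC call was lost without any brain translatome library or without brain EC 1 or 3 (adjusted p up to 0.0045) and on the total-count scale (0.78, adjusted p = 0.0048). In kidney EC Psmb8 had 0.369, 0.450 and 0.716 RPKM against 0.569, 0.866 and 0.490 RPKM in the kidney translatome, which overlap (log2 fold change 0.03, adjusted p = 0.95).

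Psmb9, the form that replaces Psmb6, had 0.461, 0.772 and 0.803 RPKM in the brain translatome and 1.68, 1.37 and 1.36 RPKM in brain EC (log2 fold change 1.44 ± 0.26, adjusted p = 2.9e-04). The call was lost without brain translatome 1 or brain EC 1 (adjusted p up to 0.003), and on the total-count scale the value was 1.15 (adjusted p = 0.0017). In the Emx1-lineage it had 0.250, 0.156 and 0.187 RPKM (log2 fold change -1.58, adjusted p = 0.0021), all below the brain translatome. In kidney EC it had 1.31, 1.33 and 1.03 against 0.812, 1.05 and 1.09 RPKM in the kidney translatome, which overlap (log2 fold change 0.67, adjusted p = 0.063).

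Psmb10, the form that replaces Psmb7, was the only alternative subunit with at least 271 reads in every library. It had 15.0, 13.4 and 12.5 RPKM in brain EC against 11.8, 10.3 and 10.9 RPKM in the brain translatome (log2 fold change 0.60 ± 0.10, adjusted p = 8.7e-05), and 13.0, 12.7 and 11.8 against 10.6, 10.6 and 9.84 RPKM in kidney (log2 fold change 0.63 ± 0.09, adjusted p = 1.3e-04). Groups did not overlap in either organ. In brain EC it kept its call with each library left out, while in kidney EC the call was lost without kidney translatome 3 or kidney EC 1 (adjusted p up to 0.0012). On the total-count scale the values were 0.30 (adjusted p = 0.013) and 0.26 (adjusted p = 0.032). In the Emx1-lineage it had 8.31, 8.34 and 8.55 RPKM, below each brain translatome library, at a log2 fold change of -0.33 (adjusted p = 0.0029).

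The share of an alternative subunit was its RPKM as a percentage of the summed RPKM of itself and its constitutive partner. It does not depend on the scaling between libraries. Psmb10, with Psmb7 as partner, had a share of 4.81% ± 0.130 (SD, n = 3) in the brain translatome, 8.97% ± 0.720 in brain EC and 3.65% ± 0.0530 in the Emx1-lineage. In the kidney translatome and kidney EC it had 6.36% ± 0.441 and 8.43% ± 0.455. Psmb9, with Psmb6 as partner, had 0.376% ± 0.118 in the brain translatome, 1.35% ± 0.0891 in brain EC, 0.683% ± 0.0918 in the kidney translatome and 1.01% ± 0.113 in kidney EC. Psmb8, with Psmb5 as partner, had 1.81% ± 0.257 in the brain translatome, 4.00% ± 0.508 in brain EC, 2.17% ± 0.487 in the kidney translatome and 1.79% ± 0.714 in kidney EC. Shares of Psmb10 and Psmb9 were higher in each EC library than in each library of its organ's translatome, and those of Psmb8 overlapped in kidney. The partners Psmb7 and Psmb6 were themselves called lower in brain EC, at means of 138.5 against 217.2 and 107.7 against 181.8 RPKM. Psmb10 had a mean of 13.64 against 10.98 RPKM and Psmb9 1.472 against 0.6787, so the higher shares in brain EC hold both changes. Reads of Psmb5 can fall on a copy of its transcript, which would change the Psmb8 share.

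Psma8, known as the alpha subunit of the testis proteasome that takes the place of Psma7, had 1.89, 1.71 and 1.99 RPKM in brain EC against 0.349, 0.367 and 0.382 RPKM in the brain translatome (log2 fold change 2.64 ± 0.18, adjusted p = 3.0e-08). It kept its call on the total-count scale (2.34, adjusted p = 8.9e-08) and with each library left out. In kidney EC it had 0.559, 0.595 and 0.761 against 0.942, 0.300 and 0.490 RPKM, which overlap (log2 fold change 0.49, adjusted p = 0.3), and brain EC exceeded kidney EC by 1.58 ± 0.19 (adjusted p = 2.6e-05). In the Emx1-lineage it had 0.0223, 0.0558 and 0.0892 RPKM (log2 fold change -2.74 ± 0.41, adjusted p = 7.2e-05, 95% interval -3.54 to -1.94), a call lost without brain translatome 1 (adjusted p = 0.0011). At 0.971% ± 0.0438 of the summed RPKM of Psma8 and Psma7 in brain EC it stayed a minor transcript. Psmb11, the thymus form of Psmb5, had 0 to 7 reads in every library and is not compared.

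Macrophages and microglia also express the immunoproteasome. The 8 macrophage markers listed, none of which was at 0, summed to 32.2 to 35.45 RPKM in brain EC against 65.77 to 74.09 in the brain translatome. In kidney EC they summed to 8.061 to 9.218 against 43.56 to 56.83 RPKM. In the Emx1-lineage they summed to 3.447 to 3.494 RPKM, lower together with Psmb8. Their part in the values of Psmb8, Psmb9 and Psmb10 was not tested.

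**Figure D5:**
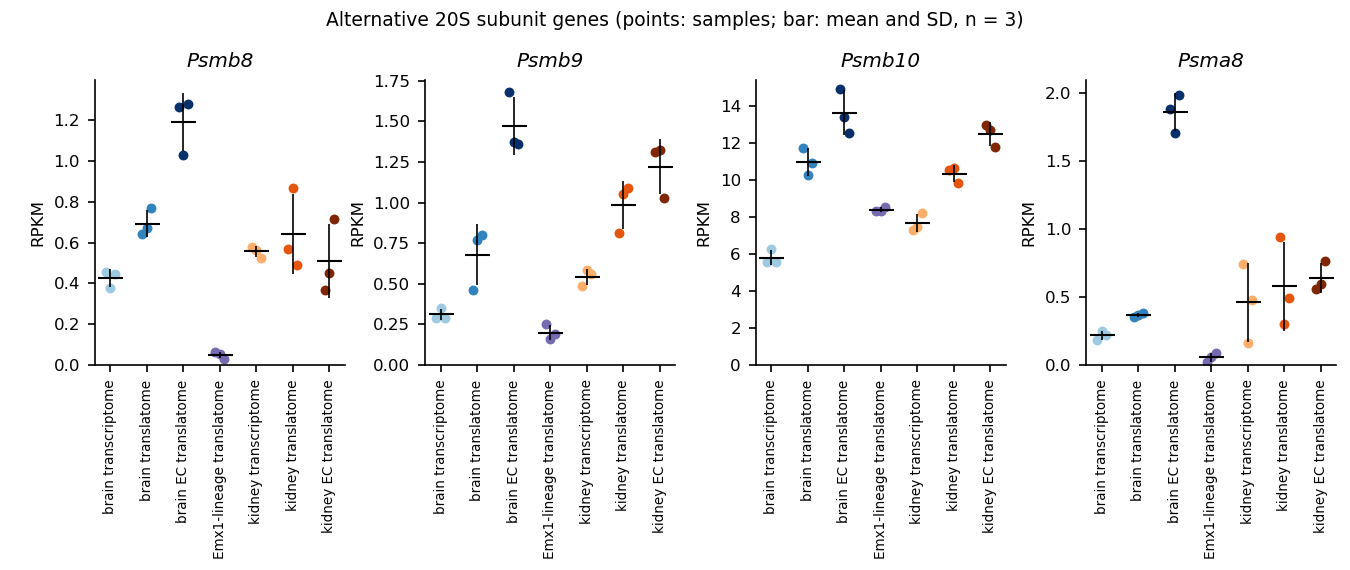
RPKM (linear axes from 0, 1 panel per gene) of Psmb8, Psmb9, Psmb10 and Psma8 in the 7 groups; points are the 3 libraries of a group, and bars the mean and SD. All 4 have their highest mean in brain EC, and Psmb8, Psmb9 and Psma8 their lowest in the Emx1-lineage.

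Set against total RNA in place of the translatome, the same cell populations gave larger counts. Emx1-lineage translatome libraries had 39 of 49 genes higher than the brain transcriptome (79.6%) and 4 lower (8.16%), where 25.4% and 23.8% of all 19471 transcripts tested were called. Brain EC had 24 higher (49%) and 3 lower (6.12%), against 26.8% and 24.3% of 19522, and kidney EC had 18 higher (36.7%) and 3 lower (6.12%), against 22.7% and 18.4% of 19335. With total-count scaling, where the median of all transcripts shifted by -0.34 in brain EC and -0.43 in kidney EC, the counts were 11 higher and 10 lower in brain EC and 5 higher and 17 lower in kidney EC, so the balance of directions depends on the scaling. The Emx1-lineage had 34 higher and 5 lower on that scale, with a shift of -0.15. At adjusted p under 0.05 they were 40 higher and 5 lower (background 32.1% and 33.4%) for the Emx1-lineage, 33 higher and 7 lower (background 33.8% and 34.3%) for brain EC and 27 higher and 6 lower (background 31.8% and 31.7%) for kidney EC. These comparisons share the transcriptome libraries with those above and are not independent of them. Their backgrounds include weakly expressed transcripts, and the share among mRNAs over 1 RPKM was not computed. With TMM scaling all 4 genes of the 20S chaperones were higher in each: Psmg4 had 1.21 in the Emx1-lineage, 0.57 in brain EC and 1.05 in kidney EC. Psmd1 was lower in each, at -0.93, -0.93 and -0.51, and so was Psme4, at -0.51, -0.53 and -0.37. Psmb1, Psmb6, Psmb7 and Psmd14 were called higher in kidney EC although their 3 RPKM values lay below those of the kidney transcriptome, a case where the direction depends on the scaling: on the total-count scale Psmb6 had -0.16 and Psmb7 -0.17. The count for kidney EC was 11 higher without kidney EC 1.

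Other genes of the pathway were taken from lists of known partners. Of 11 further proteasome factors, 7 were higher and 1 lower in the brain translatome than in total RNA, and 3 were higher and 2 lower in kidney, and 1 differed between the organs. Over all transcripts tested the shares were 18.6% higher and 18.5% lower in brain and 14.9% and 15.8% in kidney, the background for each list read in these comparisons. Pomp, the chaperone that completes the 20S core, had 113, 131 and 118 RPKM in the brain transcriptome and 250.1, 243 and 254 RPKM in the brain translatome, a log2 fold change of 1.07 (adjusted p = 1.5e-09), and 0.62 (adjusted p = 2.0e-05) in kidney. Shfm1, the smallest 19S subunit, had 1.52 in brain and 1.30 in kidney, and AI314180, the large adaptor of the 26S proteasome also called Ecm29, had -0.79 and -0.68. In brain EC and kidney EC, 5 of the 11 were higher and 0 lower (over all transcripts 24.8% and 21.4% in brain EC, 16.7% and 15% in kidney EC), Pomp with 0.44 and 0.73. These counts are with TMM scaling. On the total-count scale the median of all transcripts shifted by -0.30 in brain EC and -0.37 in kidney EC. Of 11 substrate shuttles and parts of the Vcp segregase, 1 was higher and 3 lower in the brain translatome, and 1 higher and 6 lower in kidney. In the test between the organs, 0 of these 11 were higher in kidney and 3 lower, against 4.12% and 2.35% of all transcripts. The shuttles Ubqln1 and Ubqln2 had -0.35 and -0.46 in brain and -0.58 and -0.40 in kidney. Of 13 genes of ubiquitin and its activation, 6 were higher and 2 lower in brain and 4 higher and 2 lower in kidney, and 0 differed between the organs.

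Of 7 regulators of proteasome transcription, 4 were higher and 0 lower in brain EC and in kidney EC, and 0 passed the test in the Emx1-lineage. Nfe2l2, which drives antioxidant and proteasome genes, had 6.85, 6.32 and 6.46 RPKM in the brain translatome and 37.6, 38.7 and 39.2 RPKM in brain EC, a log2 fold change of 2.84 (adjusted p = 1.4e-12), and 0.53 (adjusted p = 2.6e-05) in kidney EC. Nfe2l1 had 0.64 and 0.40. The values and counts of these lists are with TMM scaling. On the total-count scale the median of all transcripts shifted by -0.30 in brain EC and -0.37 in kidney EC, so small changes hold only relative to the other transcripts. Over the same contrasts the 14 constitutive core genes had 0 higher and 4 lower in brain EC, and 2 higher and 0 lower in kidney EC. The relation of the regulators to the core genes was not tested. Of 15 genes of antigen processing and interferon response, 13 were higher and 0 lower in brain EC, 10 and 0 in kidney EC, and 0 and 5 in the Emx1-lineage. Of all transcripts tested, 24.8% were higher and 21.4% lower in brain EC, 16.7% and 15% in kidney EC, and 9.2% and 12.8% in the Emx1-lineage. Tap1, the peptide transporter gene next to Psmb9, had 0.475, 0.434 and 0.417 RPKM in the brain translatome and 1.16, 1.41 and 1.15 RPKM in brain EC, a log2 fold change of 1.77 (adjusted p = 6.0e-07). B2m, the light chain of MHC class I, had 3.11 in brain EC, 1.56 in kidney EC and -1.77 in the Emx1-lineage. These lists were read with earlier results of the same libraries known, so their counts are descriptions.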

How the data were processed

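RNA of 21 libraries, 3 in each of 7 groups named by their labels, was sequenced from an unstranded TruSeq kit. The deposited read counts were made by the authors, who mapped reads to GRCm38 (mm10) with RUM and counted them per UCSC refGene entry with rpkmforgenes. The deposited RPKM values were made by the authors from these counts, divided by transcript length and by the reads on mRNA entries. Each file held 23827 entries and 392 of them repeated another symbol and accession.

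Counts were compared with edgeR 4.0.16 in R 4.3.3 (TMM scaling, quasi-likelihood test, entries with at least 1 count in the compared libraries). P-values were adjusted by Benjamini-Hochberg over all entries tested, and an adjusted p under 0.001 was called. Log2 fold changes are given ± the standard error (SE) of the fit, and RPKM of 3 libraries are listed in the order of replicates 1, 2 and 3. A difference between organs was tested as an interaction, kidney minus brain, over 12 libraries. Tables and plots were made with Python 3.11.15, and transcript copies were found with blastn 2.17.0 at 95% identity. The fits were tested on simulated counts.

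Alternatives were RLE and total-count scaling, DESeq2 1.42.0, a minimum of 10 counts in 3 libraries, a threshold of 0.05, the replicate number as a block, leaving out each library, libraries of 1 sequencing run, and ratios of mean RPKM with a pseudocount of 1 or 0.1. Translatome and transcriptome libraries of an organ with the same number came from the same tissue pool, and their deviations from the group means correlated at 0.52 to 0.67 in brain and 0.56 to 0.64 in kidney. No replicate pair differed by less than sampling noise.

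The 49 genes and all lists were chosen with earlier results of these data known. Genes named were the alternative subunits with their partners, the activators and inhibitor, up to 5 called genes in each direction per comparison whose groups did not overlap, the highest and lowest gene of each role, and Psmc3ip. Other genes named were chosen after their values were seen. Libraries totalled 21760652 to 79231692 counts, and p-values measure the spread between pooled libraries, which may in part be technical.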

Additional observations from a re-analysis of the deposited data

Results flagged for a closer look

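The 26 results below are differences between organs that passed the interaction test in edgeR (adjusted p under 0.001), each given as the log2 change in kidney minus that in brain. No explanation was tested.

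The change from transcriptome to translatome was lower in kidney for the alpha ring genes Psma1 (-0.370), Psma2 (-0.561), Psma6 (-0.503) and Psma7 (-0.635). In the beta ring it was lower for Psmb1 (-0.587), Psmb4 (-0.573), Psmb5 (-0.765), Psmb6 (-0.626) and Psmb7 (-0.648). Among the ATPases it was lower for Psmc2 (-0.632), Psmc3 (-0.695), Psmc4 (-0.467) and Psmc5 (-0.508). The other 19S genes were Psmd3 (-0.569), Psmd4 (-0.506), Psmd6 (-0.442), Psmd7 (-0.623), Psmd12 (-0.429) and Psmd14 (-0.520). Without brain transcriptome 3, 12 of the 49 genes were called in place of 19.

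The change from whole-organ to EC translatome was higher in kidney for Psma7 (0.551), Psmb4 (0.462), Psmb6 (0.532), Psmb7 (0.518), Psmd8 (0.464) and Psmd14 (0.829), and lower for Psma8 (-2.170). The median of all transcripts in this test was -0.155, and each EC group had its own sequencing run.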

How the results depend on the processing

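Counts are of the 49 genes, higher then lower, and medians are of their log2 fold changes. The 2 organ differences are kidney minus brain. RLE, the total-count scale and DESeq2 gave medians of 0.420, 0.415 and 0.420 for the brain translatome against transcriptome, and the minimum of 10 counts gave 0.466. The organ difference of EC against translatome had 15 higher (median 0.339) with RLE and 22 (0.339) with DESeq2. On the total-count scale its median was 0.202. That scale gave 0 and 23 (-0.337) for brain against kidney transcriptome, 1 and 24 (-0.311) for brain EC against translatome, 0 and 6 (-0.103) for kidney EC against translatome, and 4 higher (0.103) for the Emx1-lineage against translatome. Against the transcriptome it gave 11 and 10 (-0.004) for brain EC, 5 and 17 (-0.199) for kidney EC, and a median of 0.430 for the Emx1-lineage. Of the named genes called with TMM, directions turned only on that scale: Psmb7 in brain EC against transcriptome (-0.004, adjusted p = 0.95), and Psmb6 (-0.155, adjusted p = 0.012) and Psmb7 (-0.169, adjusted p = 0.005) in kidney EC against transcriptome. Psme1 in that comparison, not called with TMM (0.075, adjusted p = 0.27), was called lower on that scale (-0.361, adjusted p = 3.6e-04). DESeq2 called 10 higher for kidney translatome against transcriptome, 15 lower for brain against kidney transcriptome, 22 higher for kidney EC against translatome and 5 higher for brain against kidney EC. The minimum of 10 counts left 1 higher for brain against kidney transcriptome and 5 higher for the Emx1-lineage against translatome. The cause was not tested for any of these.

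With the replicate number as a block, kidney translatome against transcriptome had 11 and 20, where the pairing is by tissue pool. Kidney EC against translatome then had 1 lower and the Emx1-lineage against translatome 4 higher, where libraries share only a number, and no other count moved by over 1.5 times. Of the named values under the block, 210 kept their side of the threshold, 8 passed it and 10 lost it. Within 1 sequencing run, where the lone library of a group is assumed to vary like the others, the brain median was 0.604.

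At an adjusted p under 0.05 the counts were 15 and 20 for kidney translatome against transcriptome, 5 and 20 for brain against kidney transcriptome, 13 and 16 for brain EC, 34 and 4 for kidney EC and 26 and 5 for the Emx1-lineage against translatome, and 8 and 13 for brain against kidney EC. Against the transcriptome 7 were lower in brain EC and 6 in kidney EC. The organ differences had 2 and 31, and 25 and 2.

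From mean RPKM with a pseudocount of 1 and 0.1, medians were 0.328 and 0.408 for brain translatome against transcriptome, -0.265 and -0.318 for brain against kidney transcriptome, -0.299 and -0.302 for brain EC, -0.083 and -0.090 for kidney EC and 0.098 and 0.10 for the Emx1-lineage against translatome. Against the transcriptome they were -0.002 and -0.002 for brain EC, -0.184 and -0.191 for kidney EC and 0.405 and 0.410 for the Emx1-lineage. Median log2 levels of genes over 1 RPKM were 6.024 in brain transcriptome, 6.045 in brain translatome, 6.050 in the Emx1-lineage, 6.315 in kidney transcriptome and 6.037 in kidney translatome.

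Leaving out each library in turn gave 24 to 25 higher, 3 to 4 lower and medians of 0.391 to 0.467 for brain translatome against transcriptome, 4 to 7, 12 and -0.045 to 0.001 for kidney, and 1 to 2, 7 to 14 and -0.201 to -0.128 for brain against kidney transcriptome. Against the translatome it gave 3 to 8, 3 to 6 and -0.048 to 0.004 for brain EC, 5 to 17, 0 to 2 and 0.244 to 0.297 for kidney EC, and 3 to 10, 1 to 2 and 0.122 to 0.183 for the Emx1-lineage. The kidney EC count was 5 without kidney translatome 3, the brain EC count 3 without brain translatome 1 and the Emx1-lineage count 3 without Emx1-lineage 3. Brain against kidney EC had 1 to 3, 3 to 4 and -0.117 to -0.066. Against the transcriptome it gave 19 to 28, 2 to 3 and 0.311 to 0.397 for brain EC, 11 to 21, 3 and 0.201 to 0.239 for kidney EC, and 36 to 39, 4 to 5 and 0.552 to 0.607 for the Emx1-lineage. The organ difference of translatome against transcriptome had 0, 12 to 20 and -0.479 to -0.4, and that of EC 4 to 7, 0 to 1 and 0.212 to 0.285. Median log2 levels were 5.796 to 5.845 in brain transcriptome, 5.774 to 5.818 in brain translatome, 5.524 to 5.595 in brain EC, 5.911 to 5.937 in the Emx1-lineage, 6.181 to 6.22 in kidney transcriptome, 5.685 to 5.729 in kidney translatome and 5.699 to 5.794 in kidney EC. Of the named values refitted without 1 library, 1448 kept their side of the threshold, 8 passed it and 116 lost it. Psmb8, Psmb9 and Psma8 rest on few reads, so their folds are the least precise.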
